A study of Homo sapiens with 9 samples.

Results

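The regions described here are the p65 binding sites of 786-O cells that were called in all 4 p65 ChIP-seq lists of the study and carried no TEAD peak. They number 269 of the 15432 control p65 peaks on chromosomes 1 to 22 and X. Members were chosen by peak calls: a control peak had to share 1 bp or more with a p65 peak of the siTEAD4-labelled, the XMU-MP-1 and the vehicle list, and none with a TEAD peak. 786-O is an established human clear cell renal carcinoma line, and with 1 library per condition no contrast of conditions could be checked against replicates. The p65 immunoprecipitates came from cells titled siTEAD4 (treatment label siTEAD), from cells given XMU-MP-1, an inhibitor of the kinases MST1 and MST2, from vehicle cells and from control cells, whose label names no treatment. TEAD was immunoprecipitated in XMU-MP-1 cells, and TEAD binding in the other conditions was not analysed here. Without TEAD therefore means without a called TEAD peak under XMU-MP-1. Peak names inside the list labelled siTEAD4 read p65_Vert, a name found in no label, so its treatment rests on the sample label alone; without that list 345 sites met the rule.

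p65, encoded by RELA, is the transactivating subunit of the NF-κB dimer that enters the nucleus after IκB is degraded and binds κB elements, decamers of the GGGACTTTCC kind. TEAD proteins bind GGAATG elements and recruit YAP and TAZ, the coactivators held back by the Hippo kinases MST1, MST2, LATS1 and LATS2. NF-κB target genes include inhibitors of the pathway itself, adhesion molecules, matrix proteases and components of innate sensing and antigen presentation.

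Among the well-known NF-κB genes with a member, ICAM1, TAPBP and TICAM1 each had a single RefSeq window here. Their promoters are printed to show what a κB element looks like in a promoter. These genes were picked after the positions of the members had been seen, from lists of known NF-κB genes, and they were placed by general knowledge of the hg19 map rather than by an annotation. The sequences are RefSeq windows on build GRCh38.p14, 250 bases before to 50 after the gene start, 5′ to 3′ on the gene's strand. Their coordinates are not comparable with the hg19 coordinates of the peaks, and whether a window lies under a member was not computed. Capitals mark matches to the κB consensus or to GGANTTTCC on either strand, which overlap in TICAM1.
ICAM1, chr19:10270870-10271169, plus strand: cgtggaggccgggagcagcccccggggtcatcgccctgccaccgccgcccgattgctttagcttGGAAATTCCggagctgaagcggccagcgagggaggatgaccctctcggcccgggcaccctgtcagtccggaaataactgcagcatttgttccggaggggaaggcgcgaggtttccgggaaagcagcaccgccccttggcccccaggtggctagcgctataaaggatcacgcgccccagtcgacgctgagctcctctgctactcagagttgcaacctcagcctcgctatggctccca
TAPBP, chr6:33314029-33314328, minus strand: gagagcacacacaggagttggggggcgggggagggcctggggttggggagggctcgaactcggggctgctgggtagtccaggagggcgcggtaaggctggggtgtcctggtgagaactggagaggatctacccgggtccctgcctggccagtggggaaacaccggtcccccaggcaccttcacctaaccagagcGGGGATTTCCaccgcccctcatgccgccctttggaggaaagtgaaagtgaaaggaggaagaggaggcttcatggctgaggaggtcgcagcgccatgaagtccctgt
TICAM1, chr19:4831663-4831962, minus strand: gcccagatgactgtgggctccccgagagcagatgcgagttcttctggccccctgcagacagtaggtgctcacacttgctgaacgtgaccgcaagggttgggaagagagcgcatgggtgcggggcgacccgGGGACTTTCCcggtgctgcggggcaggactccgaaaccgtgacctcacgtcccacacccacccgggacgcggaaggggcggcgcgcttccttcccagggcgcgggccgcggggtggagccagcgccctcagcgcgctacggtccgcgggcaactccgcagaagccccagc

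The matches were GGAAATTCC in ICAM1 (the reverse strand of GGAATTTCC), GGGACTTTCC in TICAM1 and GGGGATTTCC in TAPBP. The κB consensus was present in 5.91% of all 35116 RefSeq promoter windows, and GGANTTTCC in 1.64%. RefSeq lists 3 windows for CYLD, of which 2 held a match, and 2 for TNIP1, of which 1 did. Neither gene is printed, since which of its windows belongs to its members is not known here. GGAATG, the TEAD element, was on neither strand of the 8 windows of these 5 genes and in 14.0% of all windows. The AP-1 element TGANTCA was likewise in none of the 8 and in 7.71% of all. The GC box GGGCGG was in 7 of the 8 and in 45.0% of all. The CYLD windows overlap in part, so the 8 are not separate sequences. A match describes the letters and is no evidence of binding, and genes chosen as NF-κB targets are no sample of the 269 sites.

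ICAM1 encodes the adhesion molecule that leukocyte integrins bind. The site at its start, chromosome 19 from 10381242 to 10381820 in hg19, had a fold enrichment of 4.78 in the siTEAD4-labelled list and 9.12 in the control, and of 6.12 under XMU-MP-1 and 13.4 with vehicle. Fold is the authors' value for the summit over its local background, and whether that came from an input is not given in the sources used here, so a higher value in another list is not by itself more binding. The nearest TEAD peak was 64164 bp away.

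CYLD and TNIP1 are negative regulators of NF-κB, the one a deubiquitinase and the other a ubiquitin-binding partner of TNFAIP3. The CYLD site, chromosome 16 from 50775463 to 50776523, had folds of 8.56 (siTEAD4-labelled) and 11.6 (control), and of 8.34 (XMU-MP-1) and 15.3 (vehicle). TNIP1 had 2 members. That towards its 5′ end, chromosome 5 from 150466562 to 150467048, had folds of 5.400 and 16.3, and of 8.37 and 15.03, in the same order of lists. It was also the member closest to TEAD, with 81 bp between it and a TEAD peak of fold 3.51. The other, further inside the gene at 150462744 to 150463378, had folds of 8.94 and 10.5, and of 8.79 and 23.4, with a TEAD peak 1539 bp away.

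TICAM1 is the adaptor TRIF of Toll-like receptors 3 and 4, and TAPBP is tapasin, which loads peptides on MHC class I. The TICAM1 site, chromosome 19 from 4831561 to 4832091, had folds of 5.82 (siTEAD4-labelled) and 27.9 (control), and of 3.61 (XMU-MP-1) and 21.6 (vehicle). Its −log10 q was 4.32 in the XMU-MP-1 list, against 79.5 in the vehicle. The TAPBP site, chromosome 6 from 33281589 to 33282585, had folds of 4.26 and 16.1, and of 4.60 and 23.03. MMP9 encodes a matrix metalloproteinase, and the site just before its start, chromosome 20 from 44636396 to 44637410, had folds of 6.96 and 16.6, and of 4.06 and 22.96. Of the 7 sites, the inner TNIP1 site had the highest fold in both treated lists, and TICAM1 and MMP9 had the lowest XMU-MP-1 folds.

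**Figure D1:**
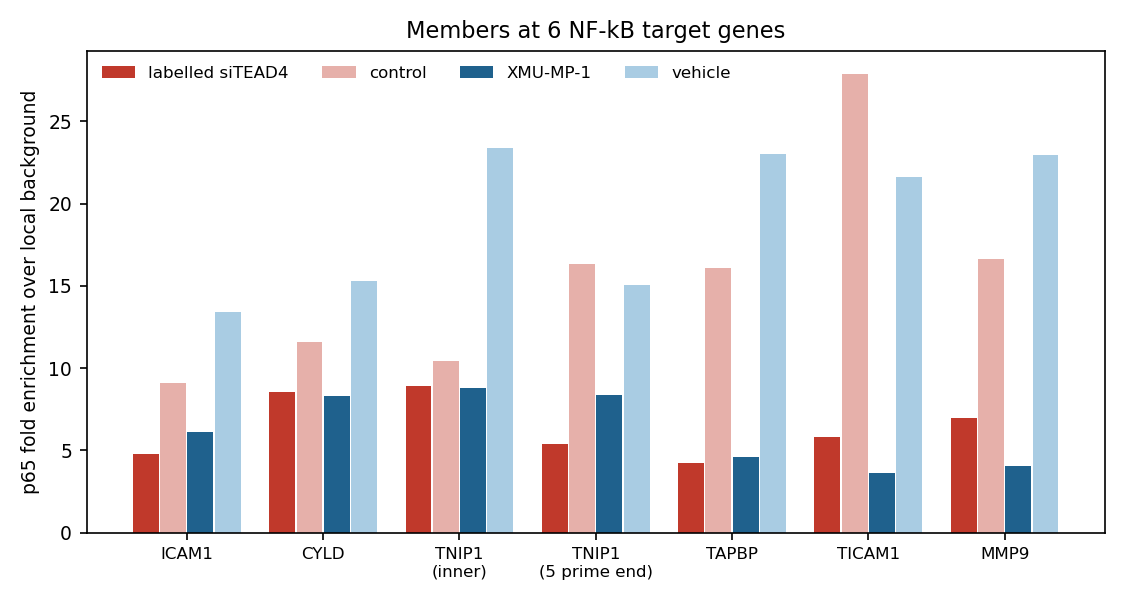
Fold enrichment of p65 (vertical axis, over local background) at the 7 members placed at 6 NF-κB target genes, with 1 bar per list in the order siTEAD4-labelled, control, XMU-MP-1, vehicle. The treated bars lie between 3.61 and 8.94 and the control and vehicle bars between 9.12 and 27.9, with 1 library per bar and no error.

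Over all 269 sites, the median fold was 6.37 in the siTEAD4-labelled list (quartiles 5.06 and 8.34) and 16.1 in the control (11.4 and 20.4). Under XMU-MP-1 it was 6.51 (5.39 and 8.34), and for the vehicle 16.9 (12.3 and 21.7). Within its own list the median member stood in the top 33.4% of siTEAD4-labelled peaks and the top 4.95% of control peaks, and in the top 40.8% of XMU-MP-1 and 4.28% of vehicle peaks. Being called in 4 lists selects strong peaks, so these positions follow in part from the rule. In the strongest 10% were 49 members of the siTEAD4-labelled list and 183 of the control, and 28 of the XMU-MP-1 list and 198 of the vehicle. In the strongest 10% of each of the 4 were 18 of the 269 members, beside 70 of the 902 sites kept in all 4 lists with TEAD.

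The 902 sites kept in all 4 lists with a TEAD peak are the nearest comparison. The members had the higher medians in the control and vehicle lists: 16.1 against 13.2 in the control, and 16.9 against 14.5 in the vehicle. In the treated lists the medians lay closer, at 6.37 against 5.95 in the siTEAD4-labelled list and 6.51 against 6.72 in the XMU-MP-1 list. Member peaks were shorter, with a median of 501 bp against 540 bp in the control list. The rule rests on peak calls in these lists, so fold and length were not tested.

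**Figure D2:**
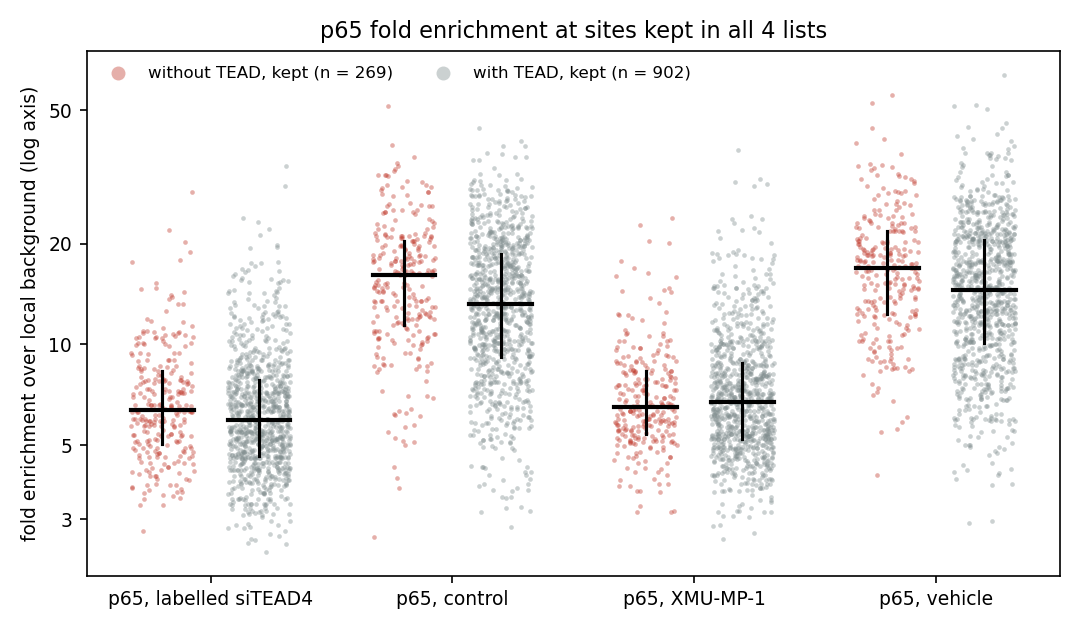
Fold enrichment of p65 (vertical axis, log scale, over local background) at sites kept in all 4 lists, by list, with each point 1 site, horizontal bars for medians and vertical bars for quartiles. Members without TEAD (red, left) have medians of 6.37 (siTEAD4-labelled), 16.1 (control), 6.51 (XMU-MP-1) and 16.9 (vehicle), beside 5.95, 13.2, 6.72 and 14.5 at sites with TEAD (grey, right).

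Few sites without TEAD were kept. The control and vehicle lists shared 6133 sites that had no TEAD peak, and the 269 are 4.39% of them, against 14.7% of the 6135 with one. Both shares were counted from the calls that the rule used. Control folds of the 6135 were not set beside those of the 6133, so the part of peak strength in this gap was not tested. Most members came from the strongest control peaks: the strongest 10% of the 6133 by control fold held 170 of them (27.7% of its 614 sites). The next 10% kept 7.99%, the third 3.59% and the weakest 0.489%. The same p65 lists gave the control fold and the calls that chose the members, so these shares are a description with no test. The lists give no read totals, so the depth behind each call is unknown here. Among all 15432 control peaks, 11.2% had a siTEAD4-labelled peak, 10.2% an XMU-MP-1 peak, 79.5% a vehicle peak and 47.5% a TEAD peak. All 3 p65 lists held 7.59%, and 1.74% were members.

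The leading members were those with the lowest mean rank of fold over the 4 lists. First came chromosome 18 from 36520588 to 36521360, with folds of 18.8 (siTEAD4-labelled) and 33.4 (control), and of 14.7 (XMU-MP-1) and 52.4 (vehicle). The nearest TEAD peak was 698546 bp away. Among the members it ranked 4 (siTEAD4-labelled), 6 (control), 10 (XMU-MP-1) and 2 (vehicle). Second was chromosome 12 from 106416262 to 106416854, with folds of 22.01 and 29.4, and of 15.98 and 44.2. The site on chromosome 10 from 104387374 to 104387988 held the highest siTEAD4-labelled fold of all members, 28.4, beside 30.8 in the control, and 14.3 under XMU-MP-1 beside 39.9 in the vehicle. Evenly placed, with member ranks of 10, 10, 3 and 10, was chromosome 10 from 81091000 to 81091936, which had folds of 14.3 and 31.99, and of 20.3 and 34.0.

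The highest folds of the other lists were also among the leaders. The site on chromosome 5 from 114786235 to 114786857 had the highest XMU-MP-1 fold of the members, 23.8, against 28.0 in the vehicle, and folds of 14.7 (siTEAD4-labelled) and 39.3 (control). The highest control and vehicle folds, 51.5 and 55.6, were at chromosome 13 from 110317996 to 110318683, where the siTEAD4-labelled fold was 12.6 and the XMU-MP-1 fold 10.8. A TEAD peak of fold 7.69 lay 414 bp from it. The site on chromosome 5 from 179245750 to 179246620 had folds of 13.8 and 34.8, and of 8.39 and 41.1. Among the 15 leaders, that on chromosome 21 from 45590714 to 45591392 had the lowest XMU-MP-1 fold, 7.34, against 33.1 in the vehicle, and folds of 17.7 (siTEAD4-labelled) and 31.9 (control).

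The lists ordered the members alike only in part. Spearman's rho of fold across the 269 sites was 0.39 between the siTEAD4-labelled and control lists, 0.24 between the XMU-MP-1 and vehicle lists, 0.43 between both treated lists and 0.66 between the control and vehicle lists. At the 902 sites with TEAD the same values were 0.50, 0.43, 0.53 and 0.76. The points of a pair of lists share their libraries and local backgrounds, so these are descriptions. Of the 27 strongest members of each list, 14 were shared by the siTEAD4-labelled and XMU-MP-1 lists, 13 by the siTEAD4-labelled and control lists, and 8 by the XMU-MP-1 and vehicle lists. All 4 lists shared 6. Such counts were not made at the sites with TEAD, so whether they are high or low for kept sites is not known here.

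Some members stood high in 1 treated list and low in the other. The site on chromosome 2 from 97274229 to 97274742 ranked 21 among the members in the siTEAD4-labelled list (fold 11.2) and 240.5 in the XMU-MP-1 list (4.73). Its control and vehicle folds were 10.03 and 18.4. The site on chromosome 15 from 81068704 to 81069109 had folds of 8.96 (siTEAD4-labelled) and 3.83 (XMU-MP-1). In the other direction, chromosome 12 from 47787838 to 47788305 ranked 266 in the siTEAD4-labelled list (3.45) and 38 in the XMU-MP-1 list (9.75), with 14.3 in the control and 26.2 in the vehicle. Chromosome 20 from 34680788 to 34681807 had folds of 5.11 (siTEAD4-labelled) and 16.3 (XMU-MP-1). Whether such gaps exceed the spread between libraries of 1 condition cannot be told with 1 library each.

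**Figure D3:**
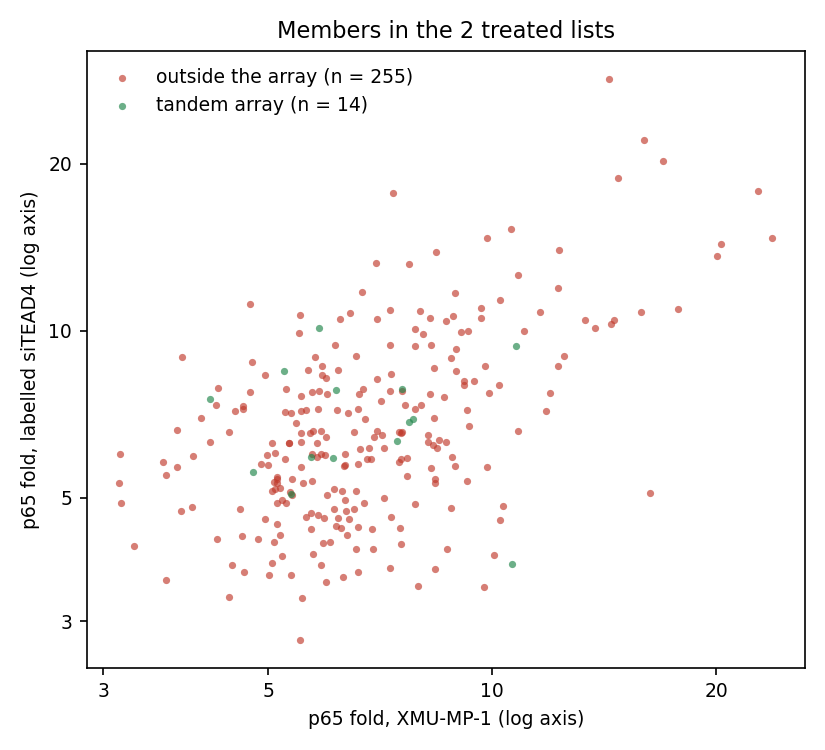
Fold enrichment of p65 at each member in the siTEAD4-labelled list (vertical axis, log scale) against that in the XMU-MP-1 list (horizontal axis, log scale). The 255 members outside the tandem array (red) and the 14 within it (green) scatter around a loose common trend, with Spearman's rho of 0.43 over all 269.

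Member summits lay close together across lists, as did those of kept sites with TEAD. Between the siTEAD4-labelled and control lists the member summits lay 25 bp apart at the median, and between the XMU-MP-1 and vehicle lists 30 bp. The control and vehicle summits lay 15 bp apart. At the kept sites with TEAD the same medians were 30.5, 34 and 21 bp. Summits fell within 50 bp of each other at 79.55% of members between the siTEAD4-labelled and control lists, against 71.0% of kept sites with TEAD, a difference of 8.60 percentage points (95% Newcombe interval 2.64 to 13.9). Intervals here and below cover the counting of sites and treat sites as independent. Sites of both sets had to overlap a peak of each other p65 list, which limits summit distances. The comparisons of summits reuse the same peaks, so they are descriptions and not separate tests. Between XMU-MP-1 and vehicle the shares were 74.7% and 66.9%, a difference of 7.87 points (1.59 to 13.6). The vehicle and control lists, compared in the same way, gave 88.5% and 80.8%, which differ by 7.66 points (2.65 to 11.9). Between both treated lists it was 5.92 points (-0.58 to 11.99), an interval that includes 0. Without the array the 4 differences were 8.26, 7.66, 7.02 and 5.44 points in this order, and the last interval again included 0 (-1.21 to 11.7). Member peaks were shorter and had higher control and vehicle folds than those with TEAD, and the part of either in summit agreement was not tested.

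The longest member of the control list is the exception in size. It spanned 3366 bp on chromosome 4 from 189367091 to 189370456, with folds of 14.7 (siTEAD4-labelled) and 8.61 (control), and of 9.84 (XMU-MP-1) and 9.02 (vehicle). The member before it, from 189365963 to 189366626, had folds of 13.2 and 11.9, and of 7.72 and 13.4. In both, the siTEAD4-labelled fold was above the control fold, as it also was at some other members.

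The largest group of neighbouring members was a tandem array on chromosome 1. There, 14 members lay between 228744171 and 228776251, a span of 32.1 kb. Textbook knowledge of the hg19 map places the RNA5S genes, which encode the 5S ribosomal RNA transcribed by RNA polymerase III, in this interval. RefSeq lists 17 RNA5S genes of 121 bp, all on chromosome 1, whose starts are spaced 2241 bp apart at the median (2215 to 2242 bp). Neighbouring p65 summits in the array were spaced 2236 bp apart at the median in the control list (15 spacings of 2117 to 2257 bp), and the medians of the other p65 lists were 2237 bp (siTEAD4-labelled), 2236.5 bp (XMU-MP-1) and 2235 bp (vehicle). TEAD summits were spaced 2238.5 bp apart (16 spacings of 2161 to 2318 bp). These medians are over spacings of 2000 to 2500 bp.

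TEAD and the regularly spaced p65 peaks alternated along the array. The p65 peaks off this spacing had summits near TEAD summits. These were 228746059 and 228777442 in the control list, beside TEAD at 228746079 and 228777415. The siTEAD4-labelled list had 228750518 beside 228750535, and the XMU-MP-1 list 228779716 beside 228779636. A regular control peak from 228748284 to 228749466 overlapped a TEAD peak and counted among the kept sites with TEAD. In 13 of the 14 members a TEAD summit preceded the p65 summit, by 727 bp at the median (639 to 746 bp), and the next TEAD summit followed at 1523 bp (1480 to 1589 bp). The gap between the called peaks was only 85 to 906 bp, so these members met the rule by a narrow margin. The 17 TEAD peaks of the array had a median fold of 30.2 (10.6 to 33.6), against 6.27 in the whole TEAD list. The p65 peaks there had median folds of 6.13 in the siTEAD4-labelled list (18 peaks) and 14.2 in the control (20 peaks), and of 6.12 under XMU-MP-1 (17 peaks) and 16.2 with vehicle (18 peaks).

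Within the array, the member with the highest control fold was the first, from 228744171 to 228744970, with 7.83 in the siTEAD4-labelled list against 29.9 in the control, and 6.17 under XMU-MP-1 against 20.7 in the vehicle. The site from 228759921 to 228760448 ranked differently in the treated lists, with a fold of 3.804 (siTEAD4-labelled) and 10.6 (XMU-MP-1). By textbook knowledge the copies of this repeat are nearly identical, and how the authors placed reads that match several copies is not given in the sources used here. Single copies may therefore not be told apart.

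**Figure D4:**
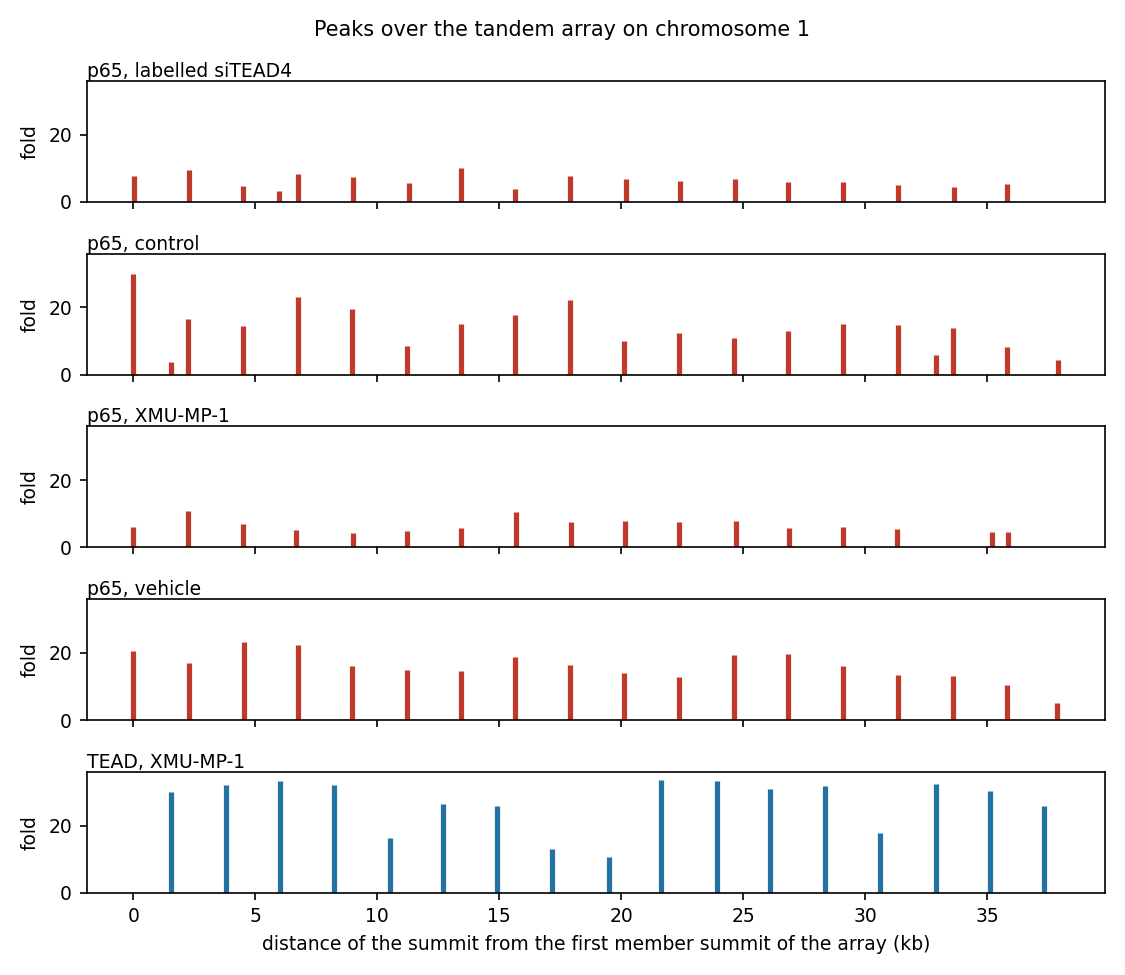
Fold enrichment (vertical axes) of each peak over the array on chromosome 1, against the distance of its summit from the first member summit (horizontal axis, kb), with p65 lists in red and TEAD in blue. Regular peaks recur at median spacings of 2235 to 2238.5 bp, and the TEAD summits lie between the regular p65 summits. The p65 lists other than the vehicle also have a few peaks off this spacing, near TEAD summits.

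Outside the array, members within 5000 bp of each other formed 3 pairs, on chromosomes 4, 5 (both in TNIP1) and 15. The share of kept sites that lacked TEAD was 22.97% overall (269 of 1171), a split that the rule itself makes. By chromosome it was lowest on chromosome 20 (13.2%, 5 members beside 33 sites with TEAD) and highest on chromosome 13 (57.1%, 4 beside 3). Chromosome 12 had 19 members beside 34 sites with TEAD (35.8%). Chromosome 1 had 40 members, 26 of them outside the array, beside 86 sites with TEAD.

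Members had neighbours less often than kept sites with TEAD, while beside all control peaks their share was higher for p65 and nearly the same for TEAD. Another control p65 peak lay within 10 kb of 47.6% of members, against 59.1% of kept sites with TEAD, a difference of -11.5 points (-18.2 to -4.72). Among all control peaks 39.3% had one. A TEAD peak that did not overlap lay within 10 kb of 43.5% of members and 62.7% of kept sites with TEAD, a difference of -19.3 points (-25.8 to -12.5). Among all control peaks this share was 44.1%. The rule split members from kept sites with TEAD by this same TEAD list, so that difference is a description and no test. Without the array the differences were -14.4 points (-21.1 to -7.45) for p65 and -22.4 points (-29.0 to -15.4) for TEAD.

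Against sites without TEAD that were lost in both treated lists, 5593 in number, members had more p65 neighbours. Another control peak lay within 10 kb of 47.6% of members and 33.0% of lost sites, a difference of 14.6 points (8.61 to 20.7), and of 11.8 points (5.65 to 18.0) without the array. The median control fold of the lost sites was 6.396, against 16.1 for the members, and its part in the difference was not tested. For a TEAD peak within 10 kb the shares were 43.5% and 34.9%, a difference of 8.63 points (2.70 to 14.7). Without the array this became 5.53 points (-0.44 to 11.8), an interval that includes 0. The direction was the same, and whether the interval excludes 0 depends on the 14 array sites.

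The gap to the nearest TEAD peak was 13093 bp at the median of the members (quartiles 2258 and 45515 bp), and 20802 bp at the lost sites (5175 and 58598 bp). A TEAD peak was within 1000 bp of 43 members (15.99%), 14 of them in the array, and of 8.92% of lost sites. Outside the array 29 of 255 members (11.4%) had one, and the median gap was 15331 bp. The farthest member from TEAD, on chromosome 5 from 18746220 to 18746978, was 1347438 bp from the nearest TEAD peak. It had folds of 6.60 (siTEAD4-labelled) and 20.7 (control), and of 5.74 (XMU-MP-1) and 23.9 (vehicle).

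**Figure D5:**
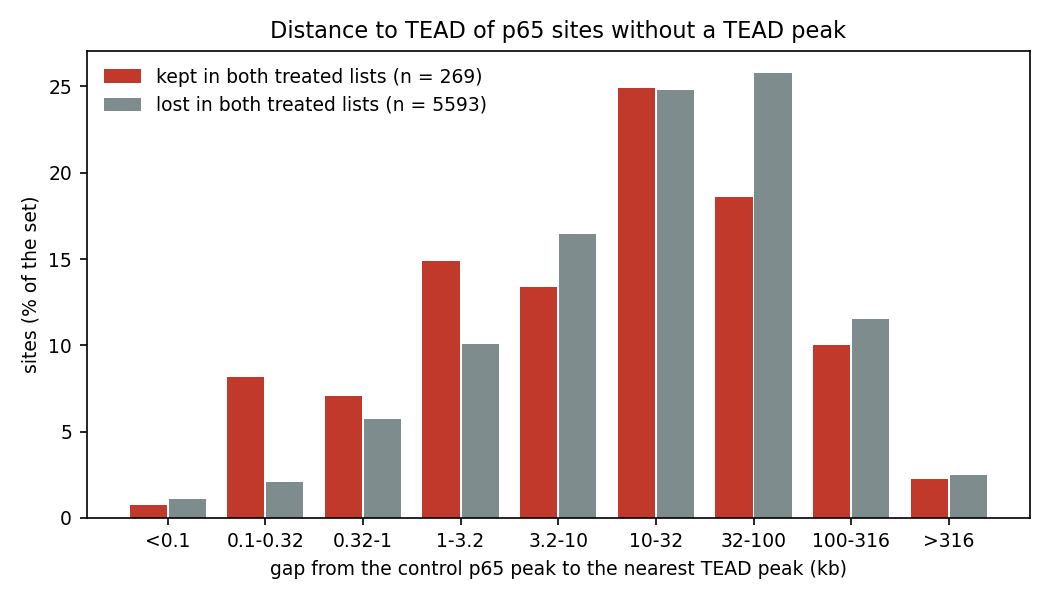
Share of p65 sites without a TEAD peak (vertical axis, percent of the set) by the gap between the control p65 peak and the nearest TEAD peak (horizontal axis, kb, classes on a log scale), for the 269 members (red) and the 5593 sites lost in both treated lists (grey). The 3 classes below 1 kb together hold 15.99% of members (11.4% without the array) and 8.92% of lost sites.

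The rule has a sharp edge on both sides. After the TNIP1 site at 81 bp and 2 array sites at 85 and 103 bp, the member nearest to TEAD lay on chromosome 10 from 30351468 to 30351987, 111 bp from a TEAD peak of fold 3.43. Just outside the rule, the kept site with the weakest TEAD peak, chromosome 4 from 8421282 to 8421789, had a TEAD fold of 2.80. It had p65 folds of 5.14 (siTEAD4-labelled) and 10.8 (control), and of 5.93 (XMU-MP-1) and 14.4 (vehicle). The next 4 had TEAD folds of 2.95 to 3.16, against a median of 9.99 at the 902 sites. Counting only TEAD peaks with a −log10 q of at least 10 would raise the number of members to 504.

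The calls in the treated lists were the weakest link. The lowest −log10 q of a member over the 4 lists came from the siTEAD4-labelled list at 110 sites and from XMU-MP-1 at 152, and it was below 5 at 44 members. At chromosome 22 from 36075514 to 36075981 it was 2.15 under XMU-MP-1 and 58.8 in the vehicle, and 9.34 in the siTEAD4-labelled list and 67.5 in the control. At chromosome 17 from 41656066 to 41656677 it was 2.20 in the siTEAD4-labelled list and 51.0 in the control, and 11.6 under XMU-MP-1 and 52.0 in the vehicle. The member with the lowest value went the other way: chromosome 6 from 11319440 to 11320104 had 8.11 in the siTEAD4-labelled list and 2.12 in the control, and 6.45 under XMU-MP-1 and 19.5 in the vehicle. With a −log10 q of at least 10 required in each p65 list, 126 sites met the rule. Kept sites with TEAD were thinned alike. The share without TEAD was 22.8% of 553 kept sites at this limit and 23.3% of 966 at a limit of 5. Median −log10 q at the 902 sites with TEAD was 12.9 (siTEAD4-labelled) and 41.4 (control), and 12.8 (XMU-MP-1) and 44.1 (vehicle). Weak treated calls were therefore no trait of the members alone.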

How the data were processed

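786-O chromatin was formaldehyde-fixed and sonicated, per the labels' protocols. The series analysed here has 5 immunoprecipitates and 4 inputs. Per the submitters' processing notes, fastp, Bowtie2 2.4.5 and MACS2 were used with build hg19; how MACS2 was set and which input served which list is not given in the sources used here. The authors deposited 1 narrowPeak list per immunoprecipitate, with a fold enrichment (ratio of summit pileup to local background), −log10 p-value and q-value, a whole-number score (not used) and the summit position. Depth is unknown.

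Overlaps of at least 1 bp, ranks, gaps and summit distances were computed (Python 3.11.15; scipy 1.17.1; pandas 2.3.3) and checked on simulated peaks. Where several peaks of a list overlapped a member, the one with the highest fold was used. Differences of shares have 95% Newcombe intervals. Chromosome Y (33 control peaks) was left out by the rule. The members, gene lists and rules for naming sites (lowest mean rank, opposed ranks, lowest q, nearest to TEAD, listed genes) were chosen with earlier results of these data known. No hg19 sequence or annotation was used, so the planned motif shares and distances to gene starts were not computed; position features took their place, chosen after seeing the data. The lengths of the 6 genes placed by general knowledge were within 5% of those in the RefSeq table. Such a match checks neither their position on hg19 nor the distance of a site from a gene start.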

Additional observations from a re-analysis of the deposited data

How the results depend on the processing

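The overlap rule, the thresholds and the lists required were varied one at a time, and leaving out the array on chromosome 1 was added after seeing the data. The number of sites, 269, was 126 with a −log10 q of at least 10 in the p65 lists, 504 when only TEAD peaks with a −log10 q of at least 10 counted and 464 when the XMU-MP-1 p65 list was not required; in the other alternatives it was between 225 and 365. The first limit drops weak peaks, the next drops weak TEAD peaks, and the last removes a condition. The share of kept sites without TEAD, 22.97%, was 32.9% with summits within 200 bp, 43.0% with TEAD peaks at that q limit, 19.3% with no TEAD peak allowed within 1000 bp and 27.01% without the XMU-MP-1 list. The excess of TEAD neighbours over lost sites was 5.53 points without the array, with 0 in its interval. In the differences of position the array was left out of the members only, not out of the sites they were compared with. Without the array the other 7 differences of position kept their direction. With and without it, 6 of their intervals excluded 0, and that for summits of both treated lists included 0. The differences in summits, and in TEAD neighbours from kept sites with TEAD, are descriptions. Their lists or overlaps were used by the rule. Alternatives for motif windows and gene starts were not run, since no hg19 sequence was used. No paired analysis was possible because no condition was sequenced in replicate.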
